A study of Mus musculus with 147 samples.

Results

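The data cover 10 genes for matricellular and related secreted proteins in single YFP-positive cells of the mouse kidney, chosen by symbol as *Spp1*, *Sparc*, *Sparcl1*, *Mgp*, *Fstl1*, *Thbs1*, *Thbs2*, *Tnc*, *Postn* and *Fn1*, out of 35438 genes in the deposited counts. WT renin cells (51 wells) came from *Ren1c+/+ Ren1c-YFP* mice and Renin-null cells (96 wells) from *Ren1c-/- Ren1c-YFP* mice, in which the renin gene is deleted. The mice were adults on the C57BL/6 strain, and all carried the YFP transgene under the 5' regulatory sequence of *Ren1c*. Sorting for YFP aims at cells in which this sequence was or had recently been active, and its purity was not tested. The YFP transcript was counted in 37 of 51 WT and 88 of 96 Renin-null wells. Each cell sat in its own well of the Fluidigm C1 System, where SMART-Seq v4 copied its polyadenylated RNA as full-length cDNA, a chemistry without molecular identifiers. The WT cells were loaded in 1 capture and sequenced in a library of their own, and the Renin-null cells were loaded in 4 captures and sequenced in 2 libraries of 48 wells, YFP1 and YFP2. The library labels of Renin-null wells 48 and 49 are out of step with the numbering of the other wells and were used as given. Cells of several mice were pooled in each genotype. The mice with deletion of the renin gene had been given saline injections after birth to survive.

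Matricellular proteins are secreted into the extracellular matrix, where they act less as scaffold than as signals. They bind collagens, growth factors and cell surface receptors such as integrins and syndecans and change how cells adhere, migrate and divide. In arteries several of them are known from vessel development, from mineralization and from the remodeling of an injured wall. The study asked how loss of renin changes the transcriptome of renin cells and which secreted proteins these cells make.

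The labels name no mouse and no capture for a single cell, so each genotype was taken as 1 sample and no test between the genotypes was run. The effect of genotype and that of the capture and library cannot be told apart. Counts were summed over the wells of a genotype, scaled to CPM (counts set to a common total) by the total counts of the genotype, or of the well for a value in a single well, and compared as the log2 ratio of Renin-null over WT. Intervals are 95% intervals for counting error alone. They do not cover the spread between wells, and they treat PCR copies as independent molecules, which they are not. A well held 26401 to 17124854 counts in WT and 3628 to 14505243 in Renin-null cells, and the mitochondrially encoded genes took a median of 60.4% of a WT well and 12.4% of a Renin-null well. The deleted gene itself was at 96023 CPM in WT against 0.135 CPM in Renin-null cells. *Akr1b7*, a marker of renin cells, was counted in 51 of 51 WT and in 94 of 96 Renin-null wells. Its median was 254 CPM over WT wells and 376 CPM over Renin-null wells. Detection includes low levels, as Renin-null wells 18, 30 and 59 held 2.46, 0.763 and 0.585 CPM. Of the Renin-null wells, 4 pairs (46 and 94, 45 and 93, 47 and 95, 48 and 96) were nearly identical, with a correlation of at least 0.974 against 0.896 for the next pair. With each such pair counted once, 92 wells remained and the median log2 ratio of the members was 2.61. Again 6 members were at least 2-fold higher, beside 52.7% of all genes. The pairs 46 and 94, 45 and 93, and 47 and 95 each join a YFP1 well with a YFP2 well. The 2 libraries are therefore not fully separate.

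RefSeq upstream windows were matched for 6 of the 10 members. That of *Spp1* is shown, the member with the largest ratio and, among the 7 members counted in at least 20% of Renin-null wells, the one held by the fewest wells, as the 250 bases before the most upstream of its RefSeq starts (GRCm38.p6, chr5:104434861-104435110, plus strand). Capitals mark matches of the motifs searched on both strands, which were the TATA box core TATAAA, the GC box GGGCGG, the CCAAT box (which reads ATTGG on the other strand), and the motifs named after the sequence.
Spp1: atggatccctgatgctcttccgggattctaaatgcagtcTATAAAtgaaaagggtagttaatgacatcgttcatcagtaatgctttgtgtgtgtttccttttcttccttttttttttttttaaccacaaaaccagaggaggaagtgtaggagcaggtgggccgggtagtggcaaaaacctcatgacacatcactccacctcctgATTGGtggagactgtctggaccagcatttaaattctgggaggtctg

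The *Spp1* window holds 1 TATAAA, which starts 211 bases before the RefSeq start, and 1 CCAAT 46 bases before it. Of all 32851 mouse windows of this length, 12.4% hold TATAAA, 33.85% CCAAT and 32.7% GGGCGG. The AP-1 motif TGANTCA, present in 6.75% of windows, and the TEAD motif GGAATG, in 12.6%, were, like GGGCGG, not found in the *Spp1* window. These matches are letters in a window and do not show which factor binds there.

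By summed counts, 6 of the 9 members with a ratio were at least 2-fold higher in Renin-null cells and 3 were at least 2-fold lower (*Sparcl1*, *Thbs1* and *Thbs2*), with a median log2 ratio of 2.61. Among all 18720 genes with a ratio, 52.4% were at least 2-fold higher and 18.5% at least 2-fold lower, with a median of 1.17. Among the 8747 genes with at least 10 CPM in the higher genotype these shares were 47.8% and 20.7%, and of the 8 members in that class 5 were higher and 3 lower. Most genes were thus higher in the summed Renin-null library, and the members' counts are to be read against that background. Together the members held 0.506% of WT counts and 1.16% of Renin-null counts. TMM factors of edgeR lower every log2 ratio by 0.70 and put the median of all genes at 0.47. Under them 6 members were still at least 2-fold higher and 3 at least 2-fold lower, beside 43.1% and 27.2% of all genes. The number at least 2-fold lower was less stable over the other alternatives, at 2 with YFP2 alone or without the highest wells, 1 with SCTransform, with the mean CPM over wells or with thinned wells, and 0 by the difference of mean log2(CPM + 1). Of all genes, 22.7% were at least 2-fold lower with YFP2 alone, 11.1% without the highest wells and 1.90% by the difference of mean log2(CPM + 1).

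**Figure D1:**
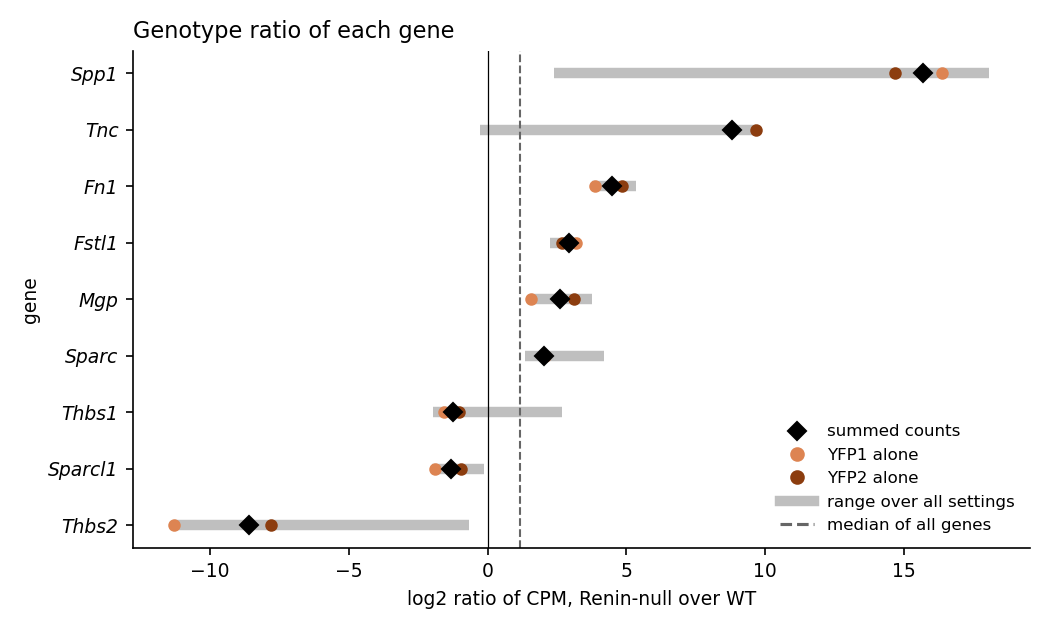
Log2 ratio of CPM, Renin-null over WT (x axis), for the 9 members with a ratio (y axis). Diamonds are the ratio of summed counts, circles the ratio with 1 Renin-null library alone, grey bars the range over the processing alternatives, and the dashed line the median of all genes at 1.17. The bars of *Fn1*, *Fstl1*, *Mgp* and *Sparc* stay above the dashed line, and that of *Thbs1* crosses 0. The lower end of the *Tnc* bar, past 0, sets 5 Renin-null counts against a WT group without counts that was put at 3 counts.

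Across the Renin-null wells the members ranged from *Mgp*, counted in all 96, to *Postn*, counted in 1. At least 10 CPM were reached in 82 of 96 Renin-null wells for *Sparc*, 80 for *Sparcl1*, 90 for *Mgp*, 82 for *Fstl1* and 58 for *Fn1*. In WT these numbers were 20, 50, 37, 43 and 4 of 51 wells. *Spp1* and *Thbs1* each reached that level in 26 Renin-null wells, *Tnc* in 1, and *Thbs2* and *Postn* in none. A level of 10 CPM is given beside mere detection, as single counts also lay in wells that share a sequencing index with a dominant well. For *Thbs2*, 12 of the 15 WT wells sharing an index with the top well had a count, against 3 of the 35 sharing none.

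**Figure D2:**
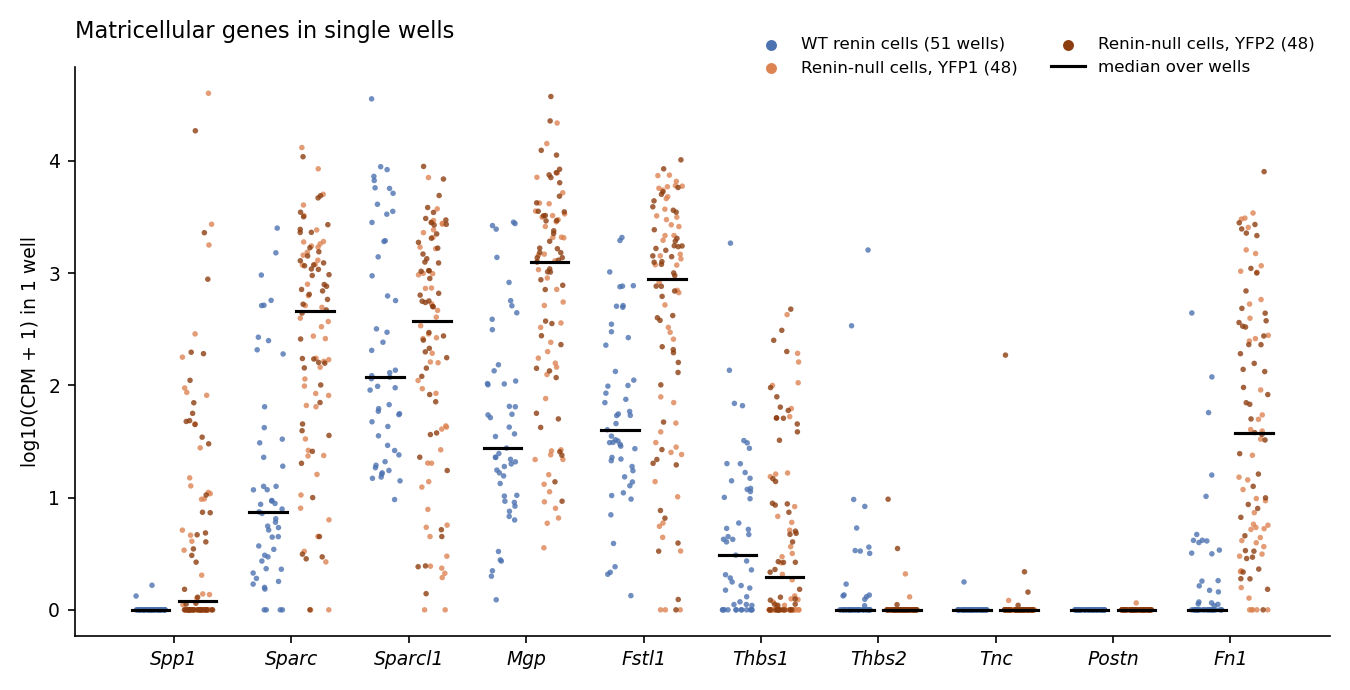
Log10(CPM + 1) of each member (x axis, by gene) in each well (1 point per well), for WT renin cells (51 wells, blue) and Renin-null cells of YFP1 and YFP2 (48 wells each, orange and brown), with the median over wells as a bar. The Renin-null medians of *Sparc*, *Mgp*, *Fstl1* and *Fn1* lie above the WT medians, while *Spp1* is near 0 in most wells with 2 wells far above the rest.

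*Mgp* encodes matrix Gla protein, a small vitamin K-dependent inhibitor of mineralization in the arterial wall that also binds bone morphogenetic proteins. It lies on chromosome 6 of GRCm38 from 136872435 to 136875823, minus strand. Its CPM over wells was 0.229 at the lowest, 26.6 at the median and 2839 at the highest in WT, and 2.57, 1257 and 37423 in Renin-null cells. The distributions overlap, with the Renin-null median above the WT median, and *Mgp* was the single member counted in all 96 Renin-null and all 51 WT wells. Summed, it was at 614 CPM in WT against 3754 CPM in Renin-null cells (ratio on the log2 scale 2.61, interval 2.60 to 2.62). The ratio differed between the libraries, at 1.57 with YFP1 and 3.13 with YFP2. Well 89 of YFP2 held 26.9% of all Renin-null *Mgp* counts.

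*Fstl1* (follistatin-like 1), a secreted glycoprotein related to SPARC that binds bone morphogenetic proteins, lies on chromosome 16 from 37776873 to 37836514, plus strand. Its lowest, median and highest CPM were 0.338, 39.2 and 2074 over WT wells and 0, 889 and 10205 over Renin-null wells. The ranges overlap, and 47 of 96 Renin-null wells held at least 1000 CPM against 3 of 51 WT wells. The sums were 355 and 2738 CPM (log2 ratio 2.95, interval 2.94 to 2.96). YFP1 alone gave 3.20 and YFP2 alone 2.69. It was the most evenly spread of the 7 members counted in at least 20% of Renin-null wells, with 11 wells holding 50% of its Renin-null counts and 33 wells holding 90%.

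*Sparc* encodes osteonectin, a collagen-binding protein that counters cell spreading, and lies on chromosome 11 from 55394500 to 55423183, minus strand. Its CPM ran from 0 over a median of 6.46 to 2515 in WT wells and from 0 over 454 to 13143 in Renin-null wells. The sums were 384 and 1585 CPM, a log2 ratio of 2.04 (interval 2.03 to 2.06), and the libraries lay close together at 2.05 in YFP1 and 2.04 in YFP2. Taken as the difference of mean log2(CPM + 1) over wells, it was 4.198. The WT counts were the more concentrated, with 2 WT wells and 7 Renin-null wells holding 50% of the counts of their genotype.

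*Fn1* encodes fibronectin, the large adhesive glycoprotein on which integrins assemble matrix, and lies on chromosome 1 from 71585520 to 71653200, minus strand. Its lowest, median and highest CPM were 0, 0 and 440 in WT wells and 0, 36.3 and 8017 in Renin-null wells. It was counted in 23 of 51 WT wells and 90 of 96 Renin-null wells. The sums were 31.0 and 687 CPM, a log2 ratio of 4.47 (interval 4.43 to 4.51). The ratio was 3.88 for YFP1 alone and 4.83 for YFP2 alone. Its counts were more concentrated than those of *Mgp*, *Fstl1* and *Sparc*, with 4 Renin-null wells holding 50% and well 89 alone holding 31.5%. In WT, well 33 held 63.7% of the counts. With the highest well of each genotype left out, the log2 ratio of *Fn1* was 5.36.

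*Sparcl1* (hevin), the close relative of *Sparc*, lies on chromosome 5 from 104079111 to 104113733, minus strand, and pointed in different directions by sum and by well. The sums were 3511 CPM in WT against 1417 CPM in Renin-null cells, which gave a log2 ratio of -1.31 (interval -1.31 to -1.30). The ratio was -1.89 for YFP1 alone and -0.96 for YFP2 alone. Its CPM over wells was 8.61, 117 and 35660 (lowest, median, highest) in WT and 0, 371 and 8917 in Renin-null cells. The median well was thus lower in WT while the sum was higher there, and 5 WT wells held 50% of the WT counts. Limits of 100000 counts and 1000 genes as minimum and of 25% as the highest mitochondrial share left 15 WT and 57 Renin-null wells. Among these, the median was 3546 CPM in WT against 895 CPM in Renin-null cells. In those wells the medians of *Sparc* were 249.2 and 1178 CPM, those of *Mgp* 102.7 and 1920 CPM, those of *Fstl1* 349 and 1960 CPM and those of *Fn1* 0.154 and 38.2 CPM. *Sparcl1* was therefore the single member of these 5 whose median in such wells was lower in Renin-null cells.

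*Spp1* encodes osteopontin, an acidic phosphoprotein that binds integrins and CD44 and is made by injured tubules, macrophages and smooth muscle in different settings. It lies on chromosome 5 from 104435118 to 104441050, plus strand, 321 kb beyond *Sparcl1*. It held 5 counts in WT, 4 of them in well 10, and 537790 counts in Renin-null cells (0.0253 and 1348 CPM), a log2 ratio of 15.70 with an interval of 14.48 to 17.33. The ratio was 16.38 in YFP1 and 14.70 in YFP2, and the size of this number rests on the 5 WT counts. Over Renin-null wells *Spp1* ranged from 0 over a median of 0.207 to 40015 CPM, and 45 wells held none, 25 held less than 10 CPM, 15 held 10 to 100, 6 held 100 to 1000 and 5 held 1000 CPM or more. Wells 7 (YFP1, 40015 CPM) and 51 (YFP2, 18532 CPM) held 66.7% and 26.3% of the counts. Without these 2 wells *Spp1* was at 98.6 CPM in Renin-null cells and the log2 ratio was 11.93 (interval 10.71 to 13.55). By sequencing index, a *Spp1* count was found in 7 of 14 wells sharing an index with well 7 and in 17 of 33 wells sharing none.

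The 4 wells richest in *Spp1* were poor in mural transcripts. The 11 genes of the renin and mural list summed to 40.3 CPM in well 7, 45.4 CPM in well 51 and 54.8 CPM in well 19, the next in *Spp1* with 2724 CPM, against a median of 14450 CPM over Renin-null wells. *Akr1b7* was at 2.90, 0.916 and 1.74 CPM in these wells and the YFP transcript at 0.781, 0.131 and 10.3 CPM, beside a median of 6.80 CPM over Renin-null wells. The marker lists they held differed. The injured tubule list stood at 824 CPM in well 7 and 447 CPM in well 51 and the fibroblast list at 754 and 158 CPM, beside a median of 174 CPM of the latter over Renin-null wells. The collecting duct list stood at 747 CPM in well 51, and the proximal tubule list at 16719 CPM in well 19 and at 20676 CPM in well 72, which had 2289 CPM of *Spp1*. Not all genes of a list were counted. In well 51 these were 2 of 8 collecting duct and 2 of 5 injured tubule genes, and in well 7 3 of the latter. Of the 10 proximal tubule genes, 8 were counted in well 19 and 7 in well 72. Of the 8 Renin-null wells with less than 100 CPM of the mural list, 5 are among the 7 wells richest in *Spp1*. Wells 8, 71 and 64, also among the richest 10 in CPM, held 10121, 15888 and 10502 counts in all and 18, 14 and 2 *Spp1* counts, so that their levels are poorly known. Macrophage genes were at 0 CPM in wells 7, 51 and 19. Over all Renin-null wells the genes with the highest rank correlation with *Spp1* were *Krt15* (0.70), a keratin, *Gsta4* (0.68), a glutathione transferase, and *Pdpn* (0.67), which encodes podoplanin. *Krt15* and *Pdpn* stood at 6681 and 4815 CPM in well 7 and at 3348 and 4906 CPM in well 51. They were at 0.868 and 0.772 CPM in well 19 and both at 0 in well 72.

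**Figure D3:**
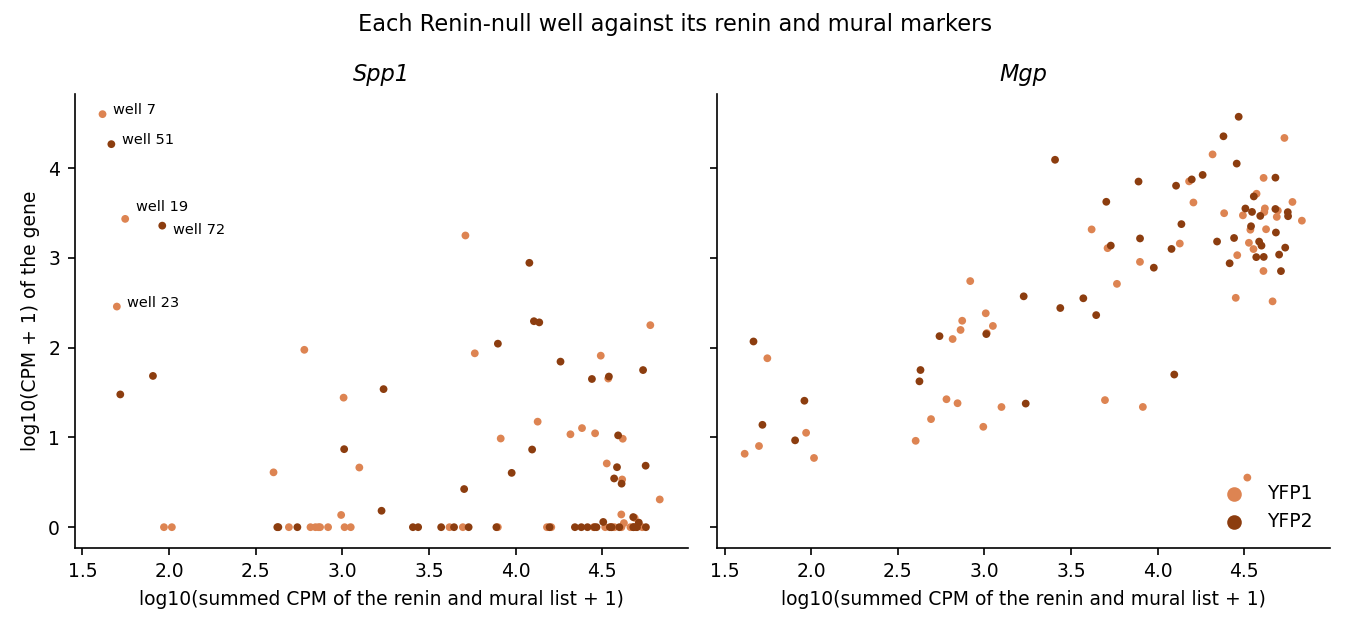
Log10(CPM + 1) of *Spp1* (left) and *Mgp* (right) against the summed CPM of the renin and mural list on the same scale, 1 point per Renin-null well, orange for YFP1 and brown for YFP2. The highest *Spp1* wells, 7 and 51, lie at the low end of the mural axis, whereas *Mgp* is high in nearly all wells at its high end.

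Over all Renin-null wells the summed tubule lists were higher than in WT. All 10 genes of the proximal tubule list were at least 2-fold higher, beside 52.4% of all genes. The list summed to 64.6 CPM in WT against 991 CPM in Renin-null cells, with no gene at 0 in Renin-null cells. The loop and distal tubule list summed to 1.31 and 113 CPM (*Slc12a1* most abundant, *Pvalb* at 0), the injured tubule list to 34.4 and 131 CPM (*Cd24a* most abundant, *Havcr1* at 0) and the collecting duct list to 40.6 and 96.1 CPM (*Fxyd4* most abundant, *Foxi1* at 0). Single wells carried much of some sums. Well 23 held 3622 CPM of the loop and distal tubule list on 8968618 counts. Well 19 held 16719 CPM of the proximal tubule list on 10363577 counts. By gene, 3 of the 8 collecting duct genes were at least 2-fold higher and 4 at least 2-fold lower, beside 52.4% and 18.5% of all genes. Their median log2 ratio was -0.35, and the nearly identical wells 48 and 96 held 2511 and 1968 CPM of the list. Its sum was 7.58 CPM in YFP1 and 170 CPM in YFP2 as labelled, but 62.4 and 124 CPM with the library labels of wells 48 and 49 exchanged. Podocyte genes summed to 86.6 CPM in WT, 160 CPM in YFP1 and 942 CPM in YFP2 (*Synpo* most abundant). Well 59 of YFP2 held 13176 CPM of the list on 10261168 counts, so the YFP2 value rests largely on 1 well. Endothelial genes (*Emcn* most abundant) summed to 185 CPM in WT, 45.9 CPM in YFP1 and 532 CPM in YFP2. Well 83 of YFP2 held 10559 CPM of the list on 7262658 counts, so the YFP2 value, above WT, rests largely on 1 well. The genes of cell dissociation summed to 7342 CPM in WT, 6528 CPM in YFP1 and 8771 CPM in YFP2, on opposite sides of WT. The macrophage list summed to 1.48 CPM in WT, 18.0 CPM in YFP1 and 4.25 CPM in YFP2, with *Cd74* most abundant and *Adgre1*, *C1qb* and *C1qc* at 0. Well 36 of YFP1 held 7645 CPM of this list on 292105 counts, so the YFP1 value rests largely on 1 well. Rank correlation of *Spp1* over Renin-null wells was 0.50 with the proximal tubule sum, 0.55 with the loop and distal tubule sum, 0.41 with the injured tubule sum and -0.11 with the renin and mural sum. The part that RNA of other cells had in the *Spp1* counts was not tested.

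*Thbs1*, *Tnc*, *Thbs2* and *Postn* had the lowest summed CPM of the 10 members in Renin-null cells. *Thbs1* encodes thrombospondin 1, which binds CD47 and CD36 and releases active TGF-beta, and lies on chromosome 2 from 118111876 to 118127133, plus strand. It was at 82.6 CPM in WT against 34.8 CPM in Renin-null cells (ratio on the log2 scale -1.25, interval -1.28 to -1.21), but WT well 18 held 94.8% of the WT counts. With the highest well of each genotype left out the log2 ratio was 2.68, and the median over wells was 2.07 CPM in WT against 0.961 CPM in Renin-null cells. In WT, 15 of 51 wells reached 10 CPM (29.4%), and in Renin-null cells 26 of 96 (27.1%). The direction of *Thbs1* between the genotypes thus depended on the measure and on the highest wells.

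*Thbs2*, its close relative on chromosome 17 from 14665500 to 14694235, minus strand, was at 84.04 CPM in WT against 0.218 CPM in Renin-null cells (ratio on the log2 scale -8.59, interval -8.91 to -8.29). WT wells 8 and 10 held 74.7% and 24.9% of the WT counts and were the only wells of either genotype with at least 10 CPM. *Tnc*, the gene for tenascin C on chromosome 4 from 63959785 to 64047015, minus strand, held 905 counts in Renin-null cells and 1 in WT (log2 ratio 8.81, interval 6.33 to 14.12). Well 79 of YFP2 held 900 of the 905 counts, at 185 CPM, so that the ratio describes 1 cell. *Postn*, the gene for periostin on chromosome 3 from 54361109 to 54391037, plus strand, held 1 count in Renin-null cells and none in WT, and no ratio was taken. No count in the summed WT library allows a level of up to 0.0152 CPM, by 3 counts of the total.

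**Figure D4:**
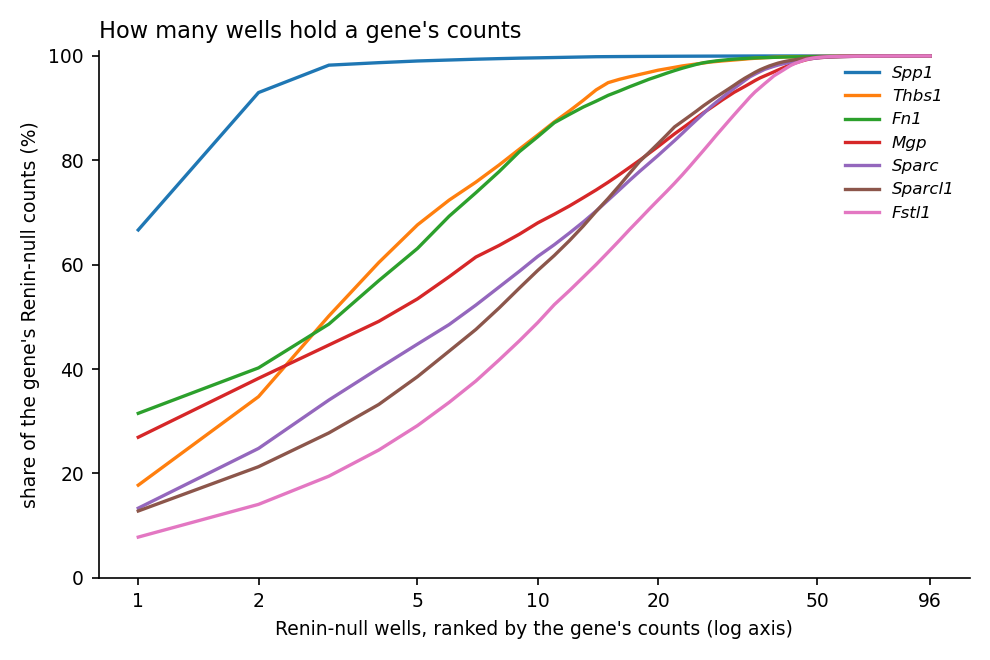
Share of a gene's Renin-null counts in percent (y axis) held by the wells with the most counts of it (x axis, log scale, 1 to 96 wells), 1 line per gene for the 7 members counted in at least 20% of Renin-null wells. *Spp1* passes 90% with 2 wells, *Thbs1* and *Fn1* with 13, and *Fstl1* with 33.

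Levels of different genes were compared per kb of the longest annotated transcript. In Renin-null cells *Mgp* led with 5250 CPM per kb, followed by *Spp1* (895), *Fstl1* (723), *Sparc* (689), *Sparcl1* (514), *Fn1* (82.6), *Thbs1* (5.95), *Tnc* (0.319), *Thbs2* (0.0370) and *Postn* (0.00048). The libraries YFP1 and YFP2 gave *Mgp* 2554 and 7500 CPM per kb, *Spp1* 1433 and 446, *Fstl1* 862 and 606, *Sparc* 692 and 687 and *Sparcl1* 344 and 656. The places of *Spp1*, *Fstl1*, *Sparc* and *Sparcl1* are therefore not separated beyond the spread between the libraries, apart from *Sparc* above *Sparcl1*. By the median well the order was different, with *Mgp* at 1758 CPM per kb, *Fstl1* at 235, *Sparc* at 197 and *Sparcl1* at 135. *Fn1* (4.36) and *Thbs1* (0.164) followed, ahead of *Spp1* at 0.137. In WT by summed counts *Sparcl1* led with 1273 CPM per kb, ahead of *Mgp* (858), *Sparc* (167) and *Fstl1* (93.7).

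Within Renin-null cells, 7 members were counted in at least 20% of wells and their 21 pairs were compared by Spearman's rho of CPM over the 96 wells. A rho of at least 0.4 was found for 8 of the 21 pairs. Among the pairs of a member with any other gene counted in at least 20% of wells it was found for 1.85%. By member this share ran from 0.21% for *Thbs1* to 5.36% for *Fstl1*. Those other genes could be counted in as few as 20% of wells, so the shares do not compare genes counted equally often. All 8 pairs lie among *Sparc*, *Sparcl1*, *Mgp*, *Fstl1* and *Fn1*, a set named after the values were seen. The 10 pairs within these 5 genes had a median rho of 0.47 and ran from 0.31 (*Sparc* with *Fn1*) to 0.60 (*Sparcl1* with *Mgp*). *Mgp* correlated with *Fn1* at 0.55 and with *Sparc* at 0.50, *Sparcl1* with *Fn1* at 0.48 and with *Sparc* at 0.47, and *Fstl1* with *Sparc* at 0.47. *Spp1* and *Thbs1* stood outside, with medians of -0.04 and 0.07 over their 6 pairs. The neighbours *Spp1* and *Sparcl1*, on chromosome 5, had a rho of -0.11. *Ibsp* and *Dmp1*, which lie between them and were chosen for their position after their values were seen, held 14 and 59 counts in all Renin-null wells.

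**Figure D5:**
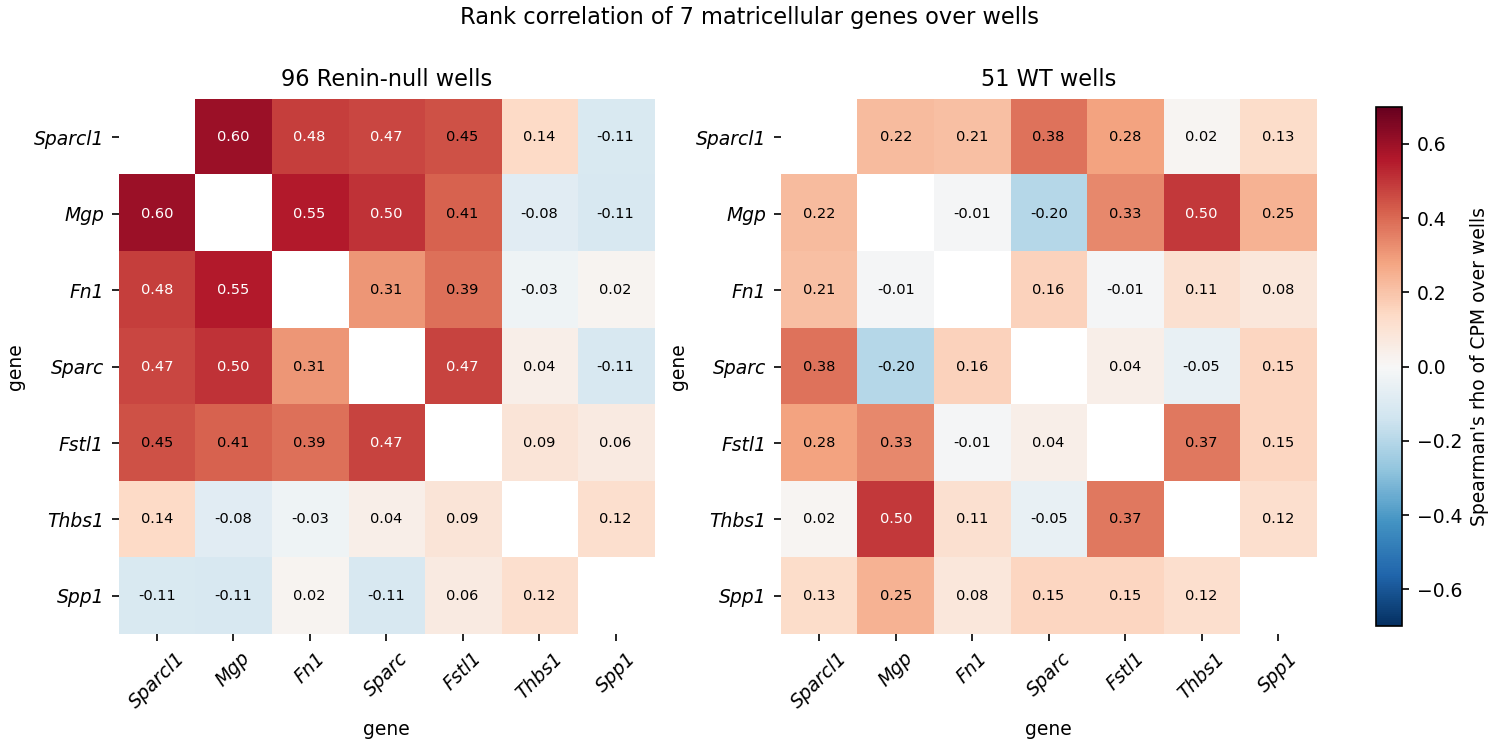
Spearman's rho of CPM over the 96 Renin-null wells (left) and the 51 WT wells (right) for each pair of the 7 members counted in at least 20% of Renin-null wells, on a color scale from blue (negative) to red (positive). In Renin-null wells the block of *Sparcl1*, *Mgp*, *Fn1*, *Sparc* and *Fstl1* runs from 0.31 to 0.60, and the rows of *Thbs1* and *Spp1* lie between -0.11 and 0.14.

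The wells share library, depth and RNA quality, so the pairs were recomputed within libraries, at equal total counts and in wells chosen by quality. Equal total counts include the mitochondrial ones, so the depth left for other genes still differed between wells. The median over the 10 pairs was 0.46 within YFP1 and 0.40 within YFP2, 0.39 when mitochondrially encoded counts were left out of the CPM and 0.48 with each well thinned to 62000 counts. At 0.4 or more were 7 of the 10 pairs within YFP1, 5 within YFP2, 4 without mitochondrially encoded counts and 9 in thinned wells. In the 57 Renin-null wells that pass the limits on counts, genes and mitochondrial share the median was 0.29, with 1 of the 10 pairs at 0.4 or more. Over all 21 pairs, which were not chosen by their values, the median was 0.14 in Renin-null wells and 0.15 in WT wells, where 1 pair, *Mgp* with *Thbs1* at 0.50, reached 0.4. The 10 pairs named from their Renin-null values had a median of 0.19 in WT wells, and nothing is read from that difference.

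The 5 genes also moved with the mural transcripts of a well. Their rho with the summed CPM of the renin and mural list was 0.74 for *Sparcl1*, 0.66 for *Mgp*, 0.62 for *Fstl1*, 0.58 for *Sparc* and 0.43 for *Fn1*, against 0.16 for *Thbs1*. With the ranks of that sum and of total counts held constant, the 10 pairs had a median of 0.19, and the highest were 0.38 for *Mgp* with *Fn1* and 0.27 for *Fstl1* with *Fn1*. Several of the genes most like these members are mural too. *Sparcl1* was closest to *Rgs5* (0.73), a pericyte marker, *Crip1* (0.71) and *Tagln* (0.70), and *Sparc* to *Ecm1* (0.56), *Tagln* (0.56) and *Acta2* (0.55), the last of which encodes smooth muscle actin. *Fstl1* was closest to *Map3k20* (0.69), *Zfp729a* (0.66) and *Rgs5* (0.65), and it was also the member most tied to the depth of a well (rho 0.52 with total counts). Of 9339 genes compared, *Mgp* was closest to *Akr1b7* (0.72), ahead of *Ppp1r12a* (0.66) and *Igfbp7* (0.63). In the 57 wells that pass the limits, the rho of *Mgp* was 0.69 with *Akr1b7* but 0.34 with *Ppp1r12a*. There *Sparc* was at 0.33 with *Tagln* and 0.34 with *Acta2*, and *Sparcl1* at 0.53 with *Rgs5*. *Fn1* was closest to *Tent5a* (0.58), *Rgs7bp* (0.56) and *Col3a1* (0.51), and *Thbs1* to *Tas1r3* (0.53) and *Wfdc1* (0.52).

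All 5 genes moved as well with the fibroblast list, at a rho of 0.65 for *Mgp*, 0.53 for *Sparcl1*, 0.45 for *Fn1*, 0.43 for *Sparc* and 0.37 for *Fstl1*. With the list of genes of cell dissociation they stood at 0.58 for *Sparcl1*, 0.53 for *Fstl1*, 0.44 for *Sparc*, 0.36 for *Mgp* and 0.23 for *Fn1*. With the mitochondrial share of a well they stood at -0.48 for *Fstl1*, -0.39 for *Sparc*, -0.29 for *Sparcl1*, -0.27 for *Mgp* and -0.11 for *Fn1*. The part of handling and RNA quality in the pairs was not tested beyond the wells chosen by quality. Of the 7 genes of the fibroblast list, 6 had a ratio and 5 were at least 2-fold higher in Renin-null cells, beside 52.4% of all genes. *Col3a1* was the most abundant at 534 CPM, *Dpt* was at 0, and the list summed to 173 CPM in WT against 1159 CPM in Renin-null cells (440 CPM in YFP1 and 1758 CPM in YFP2). Well 89, first for both *Mgp* (37423 CPM) and *Fn1* (8017 CPM), held 7890 CPM of the fibroblast list, 29356 CPM of the renin and mural list, 6490 CPM of *Akr1b7* and 4.18 CPM of *Sparcl1*. By CPM, wells 73, 16 and 27 followed in *Mgp* with 22677, 21732 and 14252 CPM, and they held 2271, 3026 and 3426 CPM of *Fn1*. Well 57 came next with 12410 CPM of *Mgp* but 5.67 CPM of *Fn1*. Wells 89, 73 and 27 thus held both genes at high levels together with *Akr1b7*, which stood at 4012 CPM in well 27. The part of the fibroblast transcripts in these levels was not tested.

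Of the 30 other matricellular genes, 28 had a ratio, 15 were at least 2-fold higher and 5 at least 2-fold lower with Renin-null over WT. Their median log2 ratio was 1.25 beside 1.17 for all genes. *Lgals3*, the gene for galectin 3, was at 53.95 CPM in Renin-null cells without a count in WT, and *Vtn* (vitronectin) was at 18.8 CPM, also without a WT count. *Vtn* had too few counts in YFP1 for a ratio, so that its level came from YFP2. *Fstl3* was at 0.995 CPM in WT against 11.5 CPM, with a log2 ratio of 1.66 for YFP1 and 4.22 for YFP2. With the library labels of wells 48 and 49 exchanged, these ratios were 2.52 and 4.04. At the other end, *Angptl4* was at 20.4 CPM in WT against 4.69 CPM in Renin-null cells (-1.49 for YFP1 and -2.99 for YFP2). *Ccn1* and *Ccn2*, secreted partners of integrins that respond to stretch, were at 824 and 172 CPM in WT and 721 and 150 CPM in Renin-null cells (log2 ratios -0.19 and -0.20). *Ccn1* was at 0.06 in YFP1 and -0.44 in YFP2. *Ccn2* was at 0.05 and -0.44, but at -0.31 and -0.11 with the labels of wells 48 and 49 exchanged.

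Of the 19 receptor genes, 12 were at least 2-fold higher and 4 at least 2-fold lower, with a median log2 ratio of 1.53. *Itgav*, the integrin subunit that recognizes the RGD sequence of osteopontin and fibronectin, was at 12.9 CPM in WT against 260 CPM in Renin-null cells (ratio on the log2 scale 4.33, interval 4.27 to 4.39). YFP1 alone gave 4.10 and YFP2 alone 4.50. *Sdc4* (syndecan 4), a receptor for fibronectin, was at 373 and 5197 CPM (3.80, with 3.25 for YFP1 and 4.14 for YFP2) and was counted in 95 of 96 Renin-null wells. *Itgb6*, the partner of *Itgav* in epithelium, was at 30.2 CPM in Renin-null cells and had 7 counts in WT, and its log2 ratio was 10.87 with YFP1 but 0.64 with YFP2. *Lrp1*, which takes up thrombospondins, was at 483 CPM in WT against 102 CPM in Renin-null cells (-2.24, with -5.19 for YFP1 and -1.45 for YFP2). *Itga4* was at 409 and 134 CPM (-1.61), but with -0.66 for YFP1 and -3.78 for YFP2 it was past 2-fold in YFP2 alone. *Dip2a*, a receptor of *Fstl1*, was at 73.9 and 1.95 CPM (-5.24, with -4.17 for YFP1 and -8.84 for YFP2).

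Of the 15 genes that modify these proteins or are bound by them, 13 had a ratio, 5 were at least 2-fold higher and 2 at least 2-fold lower, with a median of 0.58. *Tgm2*, the transglutaminase that crosslinks fibronectin and osteopontin, was at 0.313 CPM in WT against 28.9 CPM in Renin-null cells (6.52, with 7.47 for YFP1 and 4.36 for YFP2) and *Fam20c*, the kinase of secreted phosphoproteins such as osteopontin, at 6.61 and 46.9 CPM (2.83, with 3.88 for YFP1 but -0.47 for YFP2). *Vegfa*, a growth factor that binds SPARC and thrombospondins, was at 0.283 and 61.3 CPM (7.76, with 3.06 for YFP1 and 8.61 for YFP2). *Bmp2*, a ligand bound by matrix Gla protein, was at 31.1 and 11.7 CPM (-1.41), and with -0.53 for YFP1 and -3.13 for YFP2 it was past 2-fold in YFP2 alone. *Vkorc1*, of the vitamin K cycle that matrix Gla protein needs, was at 88.04 and 63.9 CPM (-0.46, with -0.93 for YFP1 and -0.16 for YFP2), and the procollagen protease *Bmp1* was at 21.4 and 26.6 CPM (0.32, but -2.05 with YFP1 and 1.06 with YFP2, and on the other side of 0 with TMM factors). Beside the 52.4% of all genes, the number at least 2-fold higher was 15 of 28 for the other matricellular genes, 12 of 19 for the receptors and 5 of 13 for these modifiers. In the same order, 5, 4 and 2 genes were at least 2-fold lower, beside 18.5% of all genes.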

How the data were processed

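Single cells were isolated with the Fluidigm C1 System and amplified with SMART-Seq v4. The authors trimmed reads with Trimmomatic 0.39, checked them with FastQC 0.11.5 and quantified them with Salmon 0.11.2 against mouse GRCm38 transcripts, per the submitters' processing notes, and deposited estimated counts per gene and cell, made with tximport and scaled by transcript length.

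Estimated counts were rounded to whole numbers and summed per genotype, and CPM was taken over all genes, the 13 mitochondrially encoded ones included. Ratios have exact conditional intervals (95%). A group without counts was set to 3 counts. A gene was called at 2-fold and a pair at a rho of 0.4. No test was run, because each genotype is 1 sample. No doublet caller was run, and the droplet experiment was not analysed here. Named were the members, the 3 largest and 3 smallest ratios of each list of related genes among genes with at least 10 CPM in the higher genotype and, per member, the 3 genes of highest rho among genes counted in at least 20% of Renin-null wells. Some genes that this rule or a list would name are not reported here. Members and lists were chosen with earlier results of these data known. On Poisson counts simulated at the summed depth of each genotype, 200 of 200 changed genes had the right direction. The simulation had no spread between wells or libraries and was set to stop at any wrong direction. It therefore checks the calculation and not the direction of any gene here. Tools were Python 3.11.15, numpy 2.4.6, pandas 2.3.3, scipy 1.17.1, R 4.3.3, edgeR 4.0.16 and Seurat 5.3.0. Alternatives covered scaling, libraries, well filters, thinning, near-identical wells and the highest well.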

Additional observations from a re-analysis of the deposited data

How the results depend on the processing

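The number of members at least 2-fold higher stayed at 5 or 6 under the alternatives run, and that of members at least 2-fold lower ran from 0 to 3. The shares of all genes did not stay alike. At least 2-fold higher were 9.03% by the difference of mean log2(CPM + 1), 43.1% with TMM factors and 62.7% without the highest wells. At least 2-fold lower were 1.90%, 27.2% and 11.1%. An unchanged number of members is thus not the same result in each setting. The median number of members counted per Renin-null cell, 6, was 5 at 10 CPM or more and in thinned wells and 7 in the wells that pass the limits on counts, genes and mitochondrial share. The median log2 ratio, 2.61, was 1.81 with YFP1 alone and 1.91 with TMM factors. The median rho of the 45 pairs, 0.088, was 0.051 with YFP2 alone, 0.049 without wells of under 200000 counts, 0.033 in wells thinned to 62000 counts, 0.0070 in the wells that pass those limits, and 0.14 over the 7 members counted in at least 20% of wells. *Thbs1* changed sign, to 0.012 as a difference of mean log2(CPM + 1) and to 2.68 without the highest well of each genotype, and *Tnc* did, to -0.27 without the highest wells, where WT had no count left and was put at 3 counts, so that this sign is set by the floor. The causes were not tested, beyond the wells named. Of 125 alternative values of single members, 88 were classed as the same, 34 as moved and 3 changed sign. The tolerance differed between members, so these counts are a rough guide. *Sparc* at 2.08 beside 2.04 was classed as moved and *Spp1* at 15.00 beside 15.70 as the same. *Tnc* had no ratio with YFP1 alone. *Spp1* ran from 2.40 to 18.07. Leaving out wells 7 and 51, restricting the pairs and exchanging the library labels of wells 48 and 49 were chosen after seeing the data. No paired analysis was possible because the cells carry no number that ties a WT to a Renin-null cell and each genotype is 1 sample. Thinning left out 2 WT and 13 Renin-null wells. Levels in wells of few counts and ratios on single WT counts are limited by depth.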
